A study of Homo sapiens with 16 samples.

Results

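The clustered histone genes encode the core histones H2A, H2B, H3 and H4 and the linker histone H1 that package newly replicated DNA. The genes were chosen by name alone, as rows of the deposited expression table whose older symbols place them in the HIST1, HIST2, HIST3 or HIST4 groups, together with H2BFS, after 14 of 90 rows with names of the PS pseudogene form were left out. This gave 76 of the 58884 genes in the table, namely 6 of H1, 17 of H2A, 23 of H2B, 15 of H3 and 15 of H4. RNA-seq was made from wild type 293T cells, a human embryonic kidney line, treated for 72 h with a pool of scramble siRNA, of siRNA against SETD2 or of siRNA against hnRNP L, with 2 libraries per siRNA. SETD2 is the methyltransferase that places H3K36me3 on transcribed genes, and hnRNP L is an RNA-binding regulator of splicing. Library numbers follow the labels, which run from 2 to 3 for SETD2 siRNA and from 1 to 2 otherwise and do not state whether they came from separate cultures. The labels give both ribosomal RNA depletion and poly(A) enrichment before library preparation for all 6 libraries.

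Most mRNAs of these genes do not carry a poly(A) tail. They end just after a short stem-loop that is bound by SLBP and cut with the help of the U7 snRNP, and they accumulate while DNA is copied. The replacement histones H3.3 and H2A.Z come from separate genes with ordinary polyadenylated mRNAs and are made throughout the cell cycle. The other genes of the replacement histone list used below were not checked for their type of mRNA. Some clustered histone genes also yield a longer, polyadenylated mRNA that runs past the stem-loop. Because poly(A) enrichment selects for tails, the values below are those of the RNA that passed this selection, and the level of histone mRNA without a tail was not measured separately.

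The names were checked against the hg38 sequence. A stem-loop pattern (GG, any 3 bases, TT, any base, T, any base, AG, any 2 bases, CC) was searched on the transcript strand in the 100 bases after the stop codon. It was found in 70 of the 71 members with an annotated stop codon (98.6%), and in 9 of 19857 other protein-coding genes (0.0453%). The other 5 members are annotated as pseudogenes. The first base of the match lay between 23 and 68 bases after the stop codon. The member without a match was H2BFS, which also lies apart from the clusters, at chr21:43565182-43565648 on the plus strand, while 55 HIST1 genes lie on chromosome 6, 15 HIST2 and 4 HIST3 genes on chromosome 1 and the HIST4 gene on chromosome 12. H2BFS has the name of a histone gene but not this mark of the replication-dependent class. A match is a description of the DNA and does not show how an mRNA was processed.

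The stem-loops of the members on which the results turn are given below 5′ to 3′ as DNA from hg38, with the 16 bases of the match in capitals and 5 bases on each side in lower case. They lie downstream of the stop codon, in the 3′ untranslated part of the exon that holds the end of the coding sequence. The same 16 bases as in HIST3H2A were found in 40 members of H1, H2A, H2B and H3, and those of HIST1H2BK in 10 members. The matches of H4 genes have another stem. HIST1H4J and HIST1H4K, whose coding sequences are identical, are both shown because their matches differ in the loop, while the 26 bases of HIST2H4A and HIST2H4B are the same.
HIST1H2BK, chr6:27146361-27146386, minus strand: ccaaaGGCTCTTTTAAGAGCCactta
HIST3H2A, chr1:228457364-228457389, minus strand: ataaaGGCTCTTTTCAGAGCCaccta
HIST1H2AC, chr6:26124664-26124689, plus strand: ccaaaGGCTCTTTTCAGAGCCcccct
HIST1H1C, chr6:26055739-26055764, minus strand: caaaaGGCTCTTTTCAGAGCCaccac
HIST2H4A, chr1:149833027-149833052, plus strand: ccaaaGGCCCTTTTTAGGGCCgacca
HIST2H4B, chr1:149860764-149860789, minus strand: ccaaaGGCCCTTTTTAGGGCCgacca
HIST1H4J, chr6:27824454-27824479, plus strand: taaaaGGCCCTTTTCAGGGCCaccct
HIST1H4K, chr6:27831173-27831198, minus strand: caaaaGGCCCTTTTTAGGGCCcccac

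The values are TPM, the deposited share of each gene among all transcripts of a library, corrected for length and scaled to 1000000. Since no reads can be recovered from them, depth is unknown, and a gene listed at 0 may have been missed. Fold changes are differences on the log2(TPM + 0.5) scale and are too small where values are low. All 16300 genes with a mean of at least 0.5 TPM were fitted with limma. Genes were called where the Benjamini-Hochberg adjusted p was under 0.05 and the change exceeded 1.5-fold. The siRNA targets followed the labels. SETD2 had 13.38 and 11.7 TPM under scramble siRNA, 4.24 and 4.91 TPM under SETD2 depletion and 10.8 and 10.24 TPM under hnRNP L depletion. HNRNPL had 341.04 and 457.16 TPM under scramble siRNA, 394.73 and 413.42 TPM under SETD2 depletion and 25.04 and 28.81 TPM under hnRNP L depletion. Of genes known from HEK293 lines, NEFL was present at 64.61 to 129.77 TPM and was called higher after hnRNP L depletion, while PAX2 stood at 1.65 to 2.79 TPM and LHX1 at 1.07 to 1.69 TPM. Of 5 markers of other cell types, only the leukocyte gene PTPRC was listed at 0 in every library, and none exceeded 1.22 TPM. The highest was the fibroblast gene COL3A1 at 0.97 to 1.22 TPM, a range that overlaps that of LHX1.

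The clustered histone genes were a minor part of the RNA measured, and a few of them held most of it. All 76 members summed to 195.94 and 252.14 TPM under scramble siRNA, 228.45 and 259.4 TPM under SETD2 depletion and 174.44 and 188.81 TPM under hnRNP L depletion. The replacement histone genes, 20 in all, summed to 2190.89 to 2801.7 TPM over the same libraries. HIST1H2BK, HIST2H4B, HIST3H2A and HIST2H4A together held 60.1% of the members' summed mean TPM, and the 10 highest members held 86.8%. By type, H2B genes held 39.5%, H2A genes 28.5%, H4 genes 24.5%, H1 genes 5.07% and H3 genes 2.17% of that sum. H3 genes were thus the lowest type on this per-length scale.

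Many members were absent or nearly so. Over the 6 libraries 17 of the 76 were listed at 0 throughout, 31 more were above 0 in some library but had a mean under 0.5 TPM, and 28 passed this filter and were tested. Those tested were 2 of H1, 9 of H2A, 11 of H2B, 3 of H3 and 3 of H4. A member could pass through a high value in any group, so the tested members are not all members. The tested members nearest to the filter were HIST2H2BF at 0.528 TPM and HIST1H2AK at 0.51 TPM, and the nearest members left out were HIST1H2AL at 0.467 TPM and HIST1H2AM at 0.462 TPM. HIST1H1A and HIST1H1B, linker histones of dividing cells, were listed at 0 in all libraries. Of the 3 testis histones, HIST1H2AA and HIST1H2BA were listed at 0 and HIST1H1T reached at most 0.11 TPM.

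**Figure D1:**
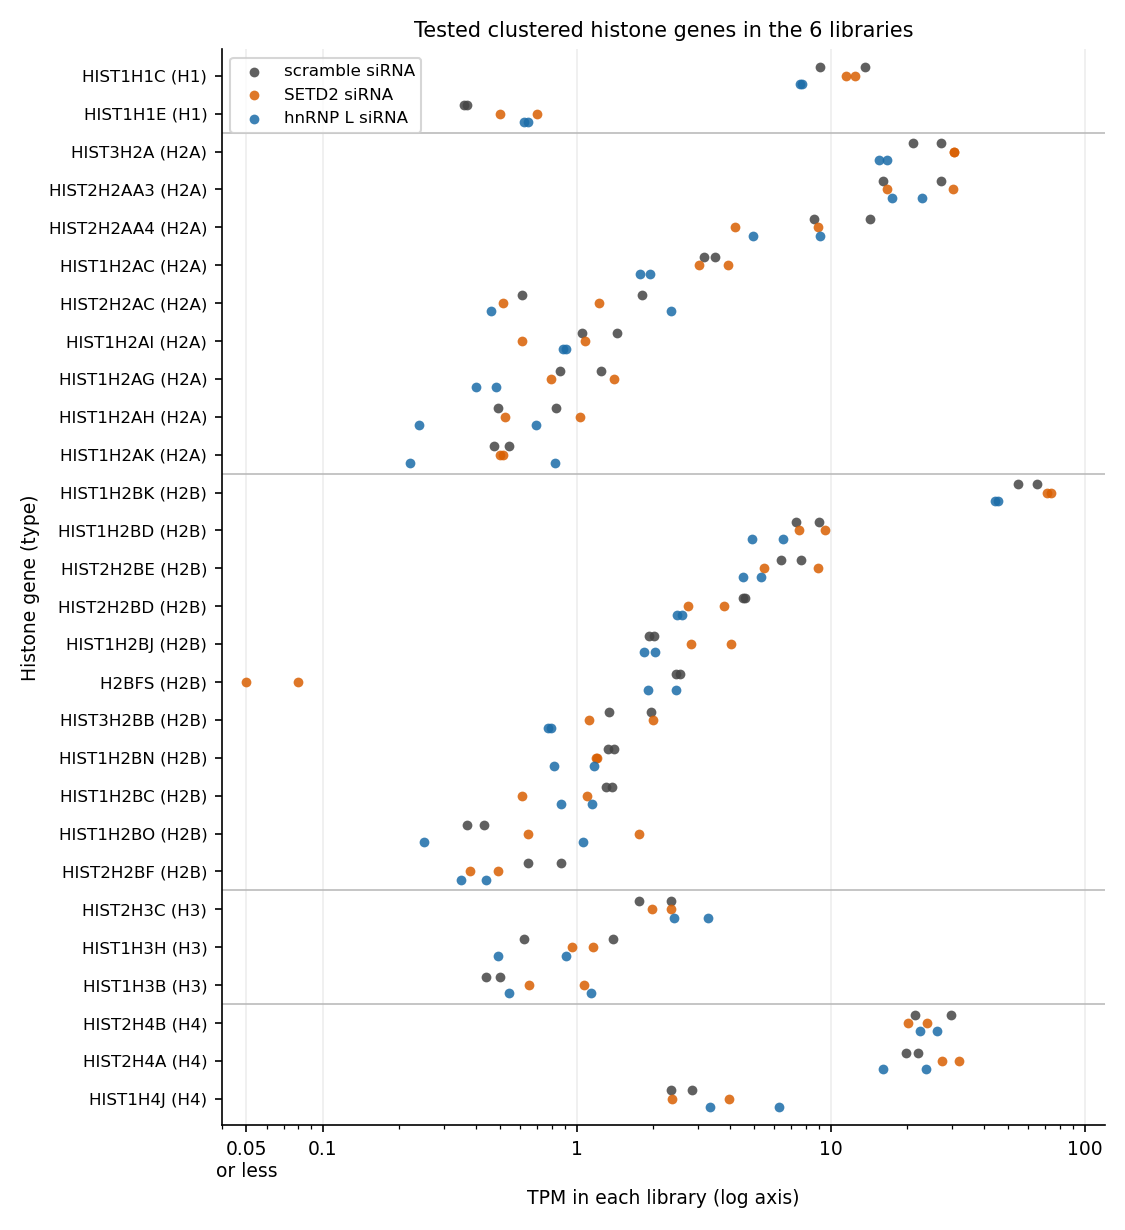
TPM on a log axis of the 28 tested members in each of the 6 libraries, ordered by histone type and mean, with 1 point per library coloured by siRNA and values under 0.05 TPM drawn at 0.05. HIST1H2BK is the highest member in every library, and the SETD2 siRNA points of H2BFS stand far to the left of its other points.

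Levels were set beside the annotated 3′ ends, using a distance of 200 bases. A transcript that ends more than 200 bases past the stop codon, in GENCODE or RefSeq, is annotated for 18 members, whereas 53 members have only transcripts that end within that distance. Of the 18, 13 passed the filter (72.2%) and 6 had a mean of at least 5 TPM. Of the 53, 14 passed (26.4%) and 3 had a mean of at least 5 TPM. The median of the mean TPM was 1.25 TPM for the 18 members with a longer transcript and 0.0783 TPM for the other 53. The 18 held 71.4% of the summed TPM of all members. Longer transcripts are annotated for HIST1H2BK, HIST3H2A, HIST2H4A and HIST2H4B, the 4 highest members, but not for HIST2H2AA3 or HIST1H1C, the next 2. No test was made of this difference, and which transcript of a gene the RNA came from cannot be read from values per gene.

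**Figure D2:**
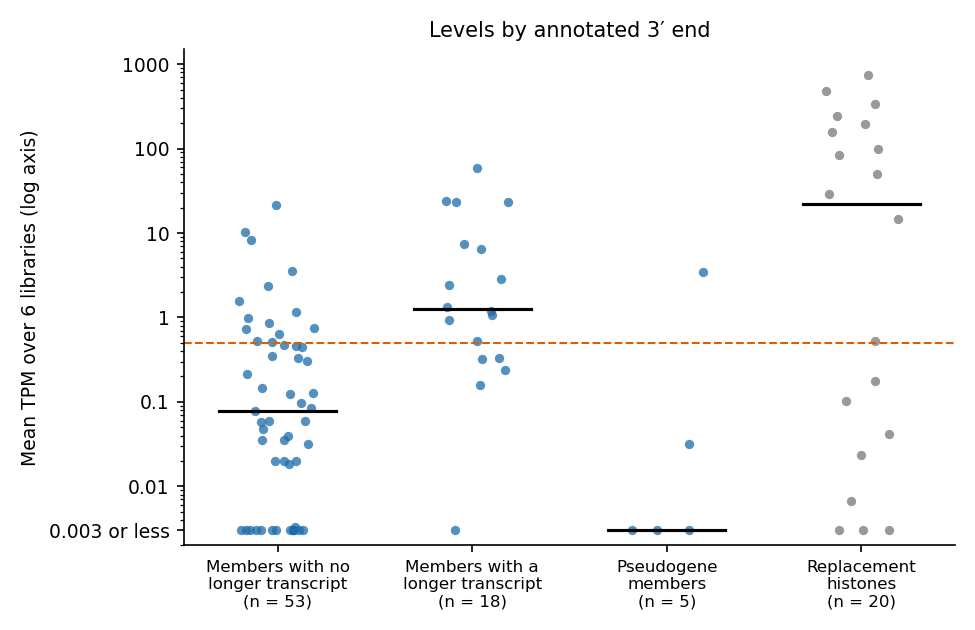
Mean TPM over 6 libraries on a log axis for the 53 members with no longer annotated transcript, the 18 with a longer transcript, the 5 pseudogene members and 20 replacement histone genes, with 1 point per gene, the median as a line, the filter of 0.5 TPM dashed and values under 0.003 TPM drawn at 0.003. The members with a longer transcript lie mostly above the filter and the other members mostly below it.

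H2A and H2B genes often lie head to head, so that the DNA between them serves as the promoter of both. Among the members, 13 such pairs were found with 170 to 291 bases between the annotated starts, and in 7 of them both genes were tested. The genes of a pair were often far apart in level. HIST1H2BK had a mean of 59.1 TPM and HIST1H2AH, 251 bases away, 0.633 TPM. HIST3H2A had 23.6 TPM and HIST3H2BB, 230 bases away, 1.33 TPM. HIST2H2AA3 had 21.7 TPM and its neighbour HIST2H2BD, an annotated pseudogene of H2B, 3.45 TPM. The higher gene of these pairs was of H2B type in the first and of H2A type in the other 2. Closer levels were seen for HIST1H2AC and HIST1H2BC, at 2.89 and 1.07 TPM.

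The promoter window of HIST1H2BK, which covers the DNA between its start and that of HIST1H2AH, is given here as the example with the widest gap in level. It is the RefSeq window of GRCh38.p14 at chr6:27146809-27147108, minus strand, with matches to CCAAT and TATAAA on either strand in capitals. The window holds 6 matches to CCAAT and 3 to TATAAA, of which a pair on opposite strands overlap.
HIST1H2BK promoter: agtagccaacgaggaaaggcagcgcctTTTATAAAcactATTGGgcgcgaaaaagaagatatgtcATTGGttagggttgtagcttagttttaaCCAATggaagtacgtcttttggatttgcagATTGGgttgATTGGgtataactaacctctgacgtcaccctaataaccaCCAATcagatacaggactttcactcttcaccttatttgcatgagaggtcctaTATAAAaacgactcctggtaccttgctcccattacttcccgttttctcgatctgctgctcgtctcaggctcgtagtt
RefSeq windows were matched for 65 of the 76 members. CCAAT stood in 84.6% and TATAAA in 66.2% of the 65 windows, against 35.6% and 11.8% of 27240 windows of other genes. Among tested and untested members CCAAT stood in 22 of 25 windows (88.0%) and 33 of 40 windows (82.5%), and TATAAA in 17 of 25 (68.0%) and 26 of 40 (65.0%). No test was made of these shares.

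H1 is the linker histone that binds where DNA enters and leaves the nucleosome. HIST1H1C, also known as H1.2, was the only H1 gene above 1 TPM, with 9.08 and 13.59 TPM under scramble siRNA, 11.49 and 12.43 TPM under SETD2 depletion, and 7.54 and 7.74 TPM under hnRNP L depletion. Both hnRNP L siRNA values lay below all 4 others, and the scramble values spanned the SETD2 siRNA values. HIST1H1E and HIST1H1D, the next members of the type, had means of 0.532 and 0.0983 TPM.

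H2A and H2B form the dimers that flank the H3 and H4 tetramer. HIST1H2BK had 54.45 and 65.14 TPM under scramble siRNA, 71.1 and 73.84 TPM under SETD2 depletion, and 45.53 and 44.28 TPM under hnRNP L depletion. HIST3H2A had 21.14 and 27.16 TPM under scramble siRNA, 30.69 and 30.49 TPM under SETD2 depletion, and 15.56 and 16.6 TPM under hnRNP L depletion. In both genes the 3 groups did not overlap, with SETD2 siRNA highest and hnRNP L siRNA lowest. HIST1H2BD had 7.33 and 9.02 TPM under scramble siRNA, 7.48 and 9.46 TPM under SETD2 depletion, and 4.91 and 6.48 TPM under hnRNP L depletion. HIST2H2BE had 6.39 and 7.61 TPM under scramble siRNA, 5.47 and 8.94 TPM under SETD2 depletion, and 4.53 and 5.31 TPM under hnRNP L depletion. In these H2B genes too both hnRNP L siRNA values lay below all others, while scramble and SETD2 siRNA overlapped.

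Some H2A and H4 genes are present in identical copies, and how reads are shared between them can change their single values. HIST2H2AA3 and HIST2H2AA4, with identical coding sequences of 390 bases, differed within groups, at 16.63 and 30.17 TPM for HIST2H2AA3 and 8.92 and 4.21 TPM for HIST2H2AA4 in the SETD2 siRNA libraries. As a sum they had 24.72 and 41.46 TPM under scramble siRNA, 25.55 and 34.38 TPM under SETD2 depletion, and 27.86 and 26.5 TPM under hnRNP L depletion. The sums of the 3 groups overlapped.

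H3 and H4 form the centre of the nucleosome. HIST2H3C, the highest H3 member, had 1.76 and 2.34 TPM under scramble siRNA, 1.97 and 2.34 TPM under SETD2 depletion, and 2.41 and 3.29 TPM under hnRNP L depletion. Its identical copy HIST2H3A was listed at 0 in all libraries, and HIST2H3D, 12 bases different over 408, reached 0.12 TPM. HIST1H3H and HIST1H3B followed with means of 0.922 and 0.723 TPM. HIST2H4A and HIST2H4B, identical over 309 coding bases, summed to 41.14 and 51.71 TPM under scramble siRNA, 47.6 and 55.74 TPM under SETD2 depletion, and 38.57 and 49.97 TPM under hnRNP L depletion. These sums overlapped between all groups.

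The sums by type keep reads that were shared among members of a type, but can still shift where those members differ in transcript length. After SETD2 depletion the sums stood at 107% (H1), 104% (H2A), 112% (H2B), 106% (H3) and 109% (H4) of the scramble mean. After hnRNP L depletion the H1, H2A and H2B sums were 71.2%, 75.4% and 74.2% of the scramble mean, and the H3 and H4 sums were 114% and 99.7%. H2B genes summed to 82.52 and 97.09 TPM under scramble siRNA and to 64.93 and 68.38 TPM under hnRNP L depletion. H2A genes summed to 53.8 and 78.85 TPM under scramble siRNA and to 50.69 and 49.27 TPM under hnRNP L depletion. For H1, H2A and H2B both hnRNP L siRNA sums lay below both scramble sums, whereas for H3 and H4 they overlapped. The H1 sum was mostly HIST1H1C. HIST1H1E, the other tested H1 gene, had 0.37 and 0.36 TPM under scramble siRNA and 0.64 and 0.62 TPM under hnRNP L depletion. Its log2 fold change was 0.39 ± 0.23 (SE), opposite to the H1 sum, with a limma adjusted p of 0.318. HIST1H2BK held most of the H2B sum, and log2 fold changes were below 0 in 10 of the 11 tested H2B genes. The sums by type were not tested. With 2 libraries per group the smallest two-sided p of an exact permutation test is 0.333. Fewer cells in S phase and less histone RNA per cell cannot be told apart in such bulk values.

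**Figure D3:**
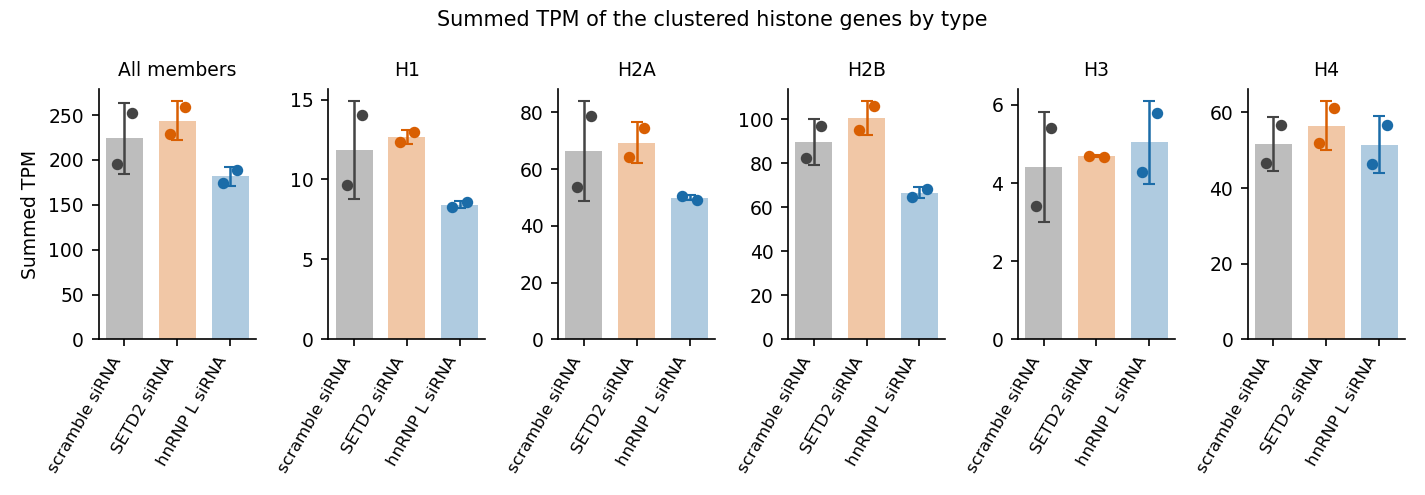
Summed TPM of all 76 members and of the members of each histone type, with the mean of 2 libraries as a bar from 0, the SD as an error bar and each library as a point. The hnRNP L siRNA points lie below both scramble points for all members together and for H1, H2A and H2B, and overlap with them for H3 and H4.

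The median difference between the libraries of a group was larger in these genes than over all tested genes, most of all under scramble siRNA. Scramble library 2 was above scramble library 1 in 23 of the 28 tested members (82.1%), with a median difference of 0.26 on the log2 scale, against 58.9% and 0.06 over all tested genes. The corresponding median differences of the members were 0.22 between the SETD2 siRNA libraries and 0.11 between the hnRNP L siRNA libraries. Over all tested genes they were 0.08 and 0.07. The part of these differences in the results below was not tested beyond leaving out each library.

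Whether histone genes depend on the H3K36 methyltransferase was addressed by SETD2 siRNA against scramble siRNA. Of the 28 tested members, 0 were called higher and 1, H2BFS, was called lower by limma, where 0.0552% of all tested genes were called higher and 0.0491% lower. At an unadjusted p under 0.05, 4 members were higher and 2 lower, against 6.76% and 6.36% of all genes. Both SETD2 siRNA libraries were above both scramble libraries in 7 members and below them in 5, against 22.9% and 20.6% of all genes. The median log2 fold change of the 28 members was 0.05, beside 0.01 for all tested genes. With the exception of H2BFS the clustered histone genes therefore showed no call after SETD2 depletion, and with 2 libraries per group smaller changes could have been missed. HIST1H2BJ, which is known to give polyadenylated mRNA as well, had 2.01 and 1.93 TPM under scramble siRNA and 2.82 and 4.05 TPM under SETD2 depletion, a log2 fold change of 0.65 ± 0.19 (SE) with a limma adjusted p of 0.237.

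H2BFS was the only member called lower after SETD2 depletion. It had 2.45 and 2.54 TPM under scramble siRNA, was listed at 0 and 0.08 TPM under SETD2 depletion, and had 1.9 and 2.45 TPM under hnRNP L depletion. The SETD2 siRNA values lay far below the other 4, which overlapped. The log2 fold change was -2.48 ± 0.21 (SE) against scramble siRNA, with a limma adjusted p of 0.0029. Its size rests on the constant added to low values, and ranged from -1.75 to -4.27 over the alternative settings. The call was lost without scramble library 1, where the limma adjusted p was 0.054, and without the filter on low values, where it was 0.161, the highest over all settings (lowest 4.62e-05).

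H2BFS is nearly the same in sequence as HIST1H2BK, the member with the most RNA. Their coding sequences differ at 4 of 378 bases (98.9% identity), while the next H2B gene, HIST1H2BE, differs from H2BFS at 24 bases. The first 90 coding bases of both are given with the 2 differing positions in capitals.
H2BFS: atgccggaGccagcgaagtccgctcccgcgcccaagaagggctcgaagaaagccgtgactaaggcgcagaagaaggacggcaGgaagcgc
HIST1H2BK: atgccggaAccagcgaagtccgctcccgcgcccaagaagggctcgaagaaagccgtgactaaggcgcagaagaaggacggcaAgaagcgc
H2BFS and HIST1H2BK summed to 56.9 and 67.68 TPM under scramble siRNA, 71.1 and 73.92 TPM under SETD2 depletion, and 47.43 and 46.73 TPM under hnRNP L depletion. The SETD2 siRNA sums were the highest and the hnRNP L siRNA sums the lowest of the 3 groups. HIST1H2BK makes up nearly all of this sum, so the sum says nothing about whether H2BFS itself changed. The part of read sharing between these genes in the H2BFS call was not tested.

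**Figure D4:**
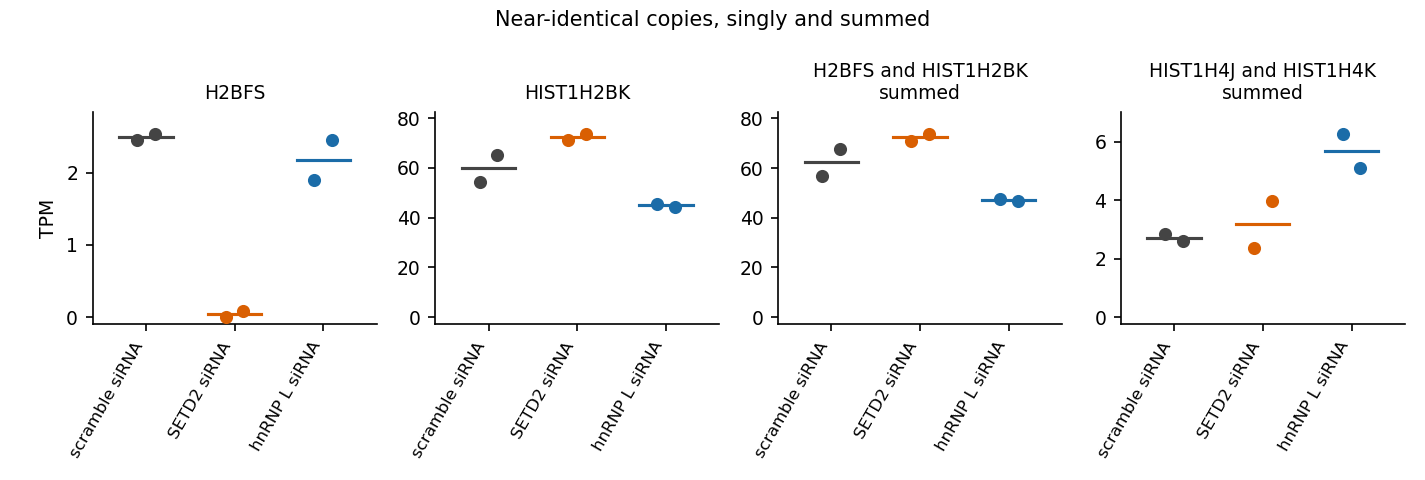
TPM in each library of H2BFS, of HIST1H2BK, of these 2 genes summed and of HIST1H4J and HIST1H4K summed, with 1 point per library and the group mean as a line, each panel on its own axis that includes 0. H2BFS is near 0 with SETD2 siRNA, its sum with HIST1H2BK is almost wholly HIST1H2BK, and the HIST1H4J and HIST1H4K sum is above 5 TPM in the hnRNP L siRNA libraries.

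Whether histone genes depend on the splicing regulator was addressed by hnRNP L siRNA against scramble siRNA. Of the 28 tested members, 0 were called higher and 2, HIST1H2AC and HIST2H2BD, were called lower by limma, where 1.75% of all tested genes were called higher and 5.01% lower. The 2 calls, made among 28 members, are near that background. Both hnRNP L siRNA libraries lay below both scramble libraries in 13 members and above them in 4, against 37.8% and 18.8% of all genes. At an unadjusted p under 0.05, 8 members were lower and 1 was higher, against 20.3% and 8.12% of all genes. The median log2 fold change was -0.30 for the 28 members and -0.08 for all tested genes. With median-ratio scaling the medians were -0.24 and 0.01, and with quantile normalization -0.21 and 0.00. The share of lower genes among all called genes was 74.0% as reported, 54.5% with median-ratio scaling and 53.2% with quantile normalization, and the same 2 members were called lower under all of these. By type, log2 fold changes were below 0 in 10 of 11 H2B genes, 8 of 9 H2A genes, 1 of 2 H1 genes, 1 of 3 H3 genes and 2 of 3 H4 genes. The comparisons of both depletions share the scramble libraries.

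HIST1H2AC and HIST2H2BD fell after hnRNP L depletion. HIST1H2AC, a replication-dependent H2A gene with a longer polyadenylated form, had 3.16 and 3.49 TPM under scramble siRNA, 3.02 and 3.94 TPM under SETD2 depletion, and 1.77 and 1.95 TPM under hnRNP L depletion. Both hnRNP L siRNA values lay below the other 4, with a log2 fold change of -0.70 ± 0.17 (SE) and a limma adjusted p of 0.0362. HIST2H2BD had 4.58 and 4.5 TPM under scramble siRNA, 2.75 and 3.79 TPM under SETD2 depletion, and 2.49 and 2.6 TPM under hnRNP L depletion. The 3 groups did not overlap, and its log2 fold change was -0.73 ± 0.17 (SE) with a limma adjusted p of 0.0309. Both genes share exons with another gene on the same strand in the annotation, and HIST2H2BD is annotated as a transcribed pseudogene, so their values are uncertain. Each call was lost when either scramble library or either hnRNP L siRNA library was left out, with the direction kept and adjusted p of up to 0.197 for HIST1H2AC and 0.176 for HIST2H2BD. Without scramble library 2, or without either hnRNP L siRNA library, 0 members were called lower.

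Several members with more RNA had lower values with hnRNP L siRNA without being called. HIST3H2A had a log2 fold change of -0.56 ± 0.13 (SE), with a limma adjusted p of 0.0305 that passed while the size did not. HIST1H2BK had -0.40 ± 0.11 (SE), where the limma adjusted p was just under 0.05 and the size again fell short. HIST1H1C had -0.51 ± 0.18 (SE), with a limma adjusted p of 0.0944. HIST1H2BD and HIST2H2BE had -0.49 and -0.47, with limma adjusted p of 0.113 and 0.189. HIST2H4A and HIST2H4B, the H4 genes with the most RNA, had only -0.09 and -0.05.

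The members were also described by their annotated 3′ ends. Log2 fold changes were below 0 in 13 of the 13 tested members with a longer transcript, with a median of -0.40, and in 8 of the 14 with no longer transcript, with a median of -0.05. Over all tested genes the median was -0.08, and 9975 of the 16300 were below 0. Both hnRNP L siRNA libraries lay below both scramble libraries in 9 of the 13 and in 3 of the 14, against 37.8% of all tested genes. Of the 7 members known to give polyadenylated mRNA as well, all had log2 fold changes below 0, with a median of -0.47, and 1 of them, HIST1H2AC, was called. They summed to 83.72 and 102.16 TPM under scramble siRNA, 101.99 and 113.76 TPM under SETD2 depletion, and 67.27 and 68.67 TPM under hnRNP L depletion, so that the hnRNP L siRNA sums were the lowest. HIST1H2BC and HIST1H2BJ, also of these 7, had log2 fold changes of only -0.29 and -0.02, and HIST2H4A and HIST2H4B, which have a longer transcript, had the small values given above. After SETD2 depletion the medians of the members with and without a longer transcript were 0.05 and 0.08. At an unadjusted limma p under 0.05, 4 of the 13 were higher and 0 lower, and 0 of the 14 were higher and 1 lower. Of all tested genes 6.76% were higher and 6.36% lower. The class sums were 116% and 92.5% of the scramble mean, and in both classes the scramble and SETD2 siRNA sums overlapped. The difference between the classes was not tested, and the members share libraries and in part promoters.

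HIST1H4J and HIST1H4K are further copies of H4. HIST1H4J had 2.84 and 2.34 TPM under scramble siRNA, 2.38 and 3.96 TPM under SETD2 depletion, and 6.28 and 3.36 TPM under hnRNP L depletion, a log2 fold change of 0.73 ± 0.29 (SE) with a limma adjusted p of 0.137. HIST1H4K, identical in its coding sequence, was listed at 0 in 4 libraries and had 0.26 TPM in scramble library 2 and 1.75 TPM in hnRNP L siRNA library 2. Their sum was 2.84 and 2.6 TPM under scramble siRNA, 2.38 and 3.96 TPM under SETD2 depletion, and 6.28 and 5.11 TPM under hnRNP L depletion. Both hnRNP L siRNA sums lay above the other 4. The log2 fold change of this sum was 0.94 ± 0.22 (SE), given with no test since the genes were summed after their values were seen. That of the H4 copies with more RNA, HIST2H4A and HIST2H4B summed, was -0.07 ± 0.16 (SE).

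**Figure D5:**
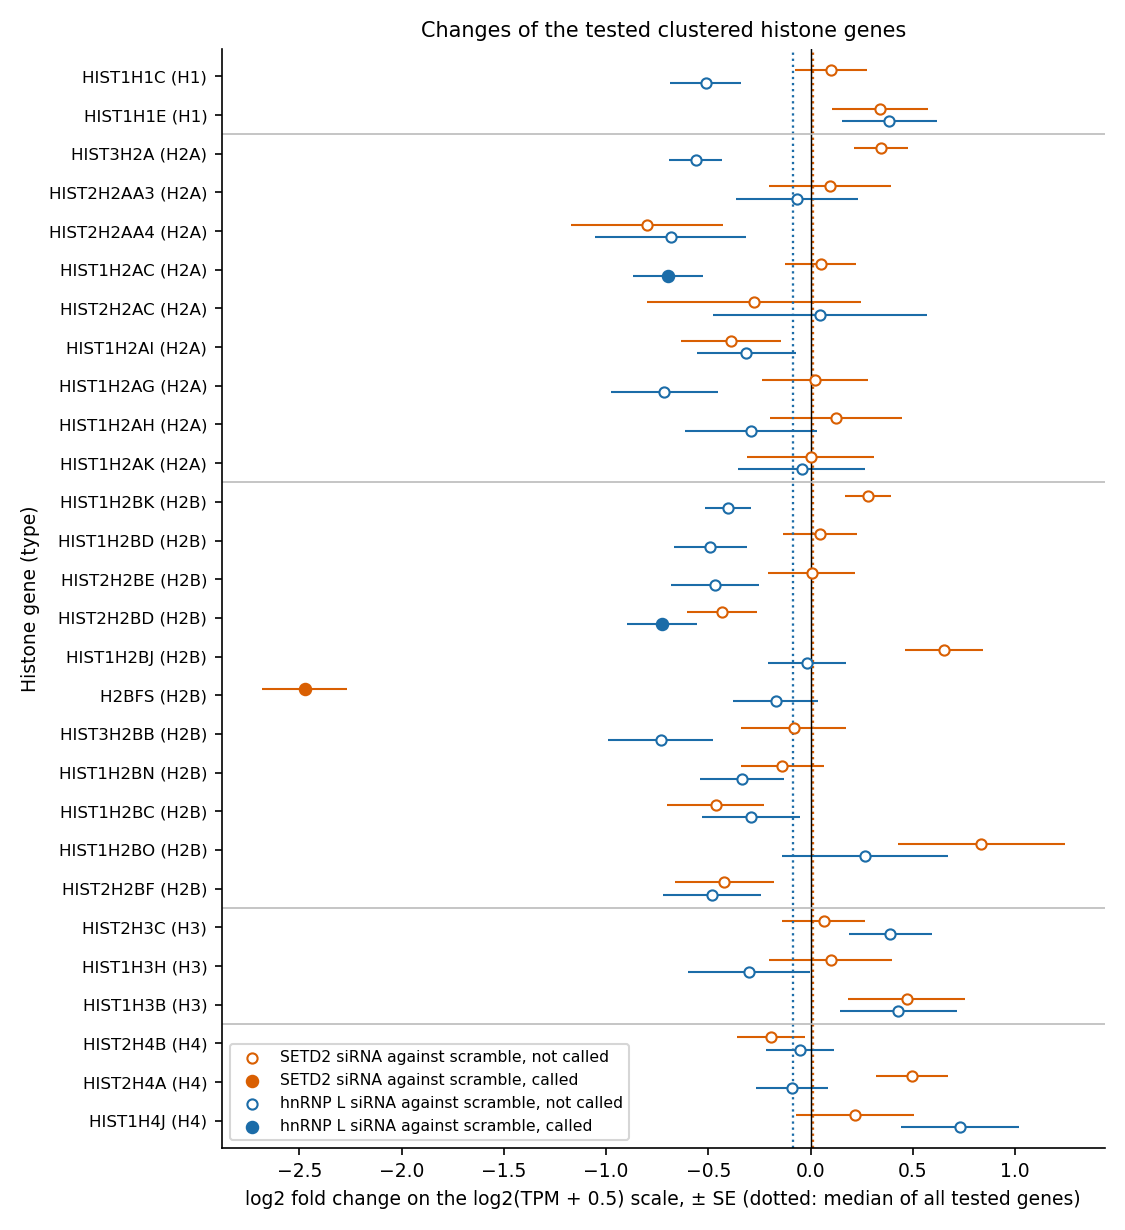
Log2 fold changes with their SE of the 28 tested members after SETD2 and after hnRNP L depletion, each against scramble siRNA, with filled points for called members and dotted lines at the median of all tested genes. Most hnRNP L siRNA points of H2A and H2B genes lie to the left of 0, with HIST1H2AC and HIST2H2BD called, and H2BFS stands apart after SETD2 depletion.

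Set directly against SETD2 siRNA, hnRNP L siRNA gave 1 member called higher, H2BFS, and 3 called lower, HIST1H2AC, HIST1H2BK and HIST3H2A, where 2.15% of all tested genes were called higher and 4.69% lower. Both hnRNP L siRNA libraries lay above both SETD2 siRNA libraries in 2 members and below them in 13, against 18.6% and 41.2% of all genes. At an unadjusted p under 0.05, 1 member was higher and 9 were lower, against 7.71% and 20.8% of all genes. The median log2 fold change was -0.25 for the members and -0.10 for all tested genes. HIST3H2A had a log2 fold change of -0.91 ± 0.13 (SE) with a limma adjusted p of 0.00645, HIST1H2BK -0.68 ± 0.11 (SE) with 0.00963, and HIST1H2AC -0.75 ± 0.17 (SE) with 0.0298. The HIST1H2BK call was lost under median-ratio scaling and quantile normalization, where the size fell to -0.58, just short of 1.5-fold. Without either SETD2 siRNA library, or without hnRNP L siRNA library 1, 0 members were called lower. The HIST1H2AC and HIST1H2BK calls were also lost without hnRNP L siRNA library 2, and that of HIST1H2AC without scramble library 2. The lower share among all called genes was 68.6% as reported, 51.0% with median-ratio scaling and 50.9% with quantile normalization.

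The factors that make histone mRNA showed no call. The list for histone gene transcription and 3′ end processing has 26 genes in the table, of which 25 were tested and 0 were called by limma in any of the 3 comparisons. At an unadjusted p under 0.05 there were 4 higher and 0 lower after SETD2 depletion, against 6.76% and 6.36% of all genes. There were 2 higher and 1 lower after hnRNP L depletion (8.12% and 20.3%), and 1 higher and 4 lower between the depletions (7.71% and 20.8%). SLBP, the stem-loop binding protein, had 77.8 and 90.55 TPM under scramble siRNA, 96.98 and 100.65 TPM under SETD2 depletion, and 87.46 and 89.86 TPM under hnRNP L depletion. Its log2 fold change was 0.23 ± 0.10 (SE) in SETD2 siRNA and 0.08 ± 0.10 (SE) in hnRNP L siRNA libraries, with limma adjusted p of 0.385 and 0.664. NPAT, the coactivator of histone genes, had 8.39 to 10.92 TPM, and CASP8AP2, another factor of the histone locus body, had 9.65 to 14.56 TPM. LSM10, LSM11 and ZNF473 are proteins of or bound to the U7 snRNP, and had 42.14 to 53.83, 4.74 to 7.22 and 5.97 to 7.74 TPM. ERI1, an exonuclease that acts at the stem-loop, had 7.43 to 8.7 TPM. RNU7-1, the U7 snRNA itself, was listed at 0 in all libraries.

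Several replacement histone genes stood above every clustered gene in level, while 8 of the 20 in the list had a mean under 0.5 TPM. H3F3A and H3F3B, which encode H3.3, had 644.4 to 840.79 and 277.32 to 403.75 TPM, and H2AFZ, which encodes H2A.Z, had 419.75 to 509.94 TPM, where the highest clustered gene in any library reached 73.84 TPM. Of the 20 genes in this list 12 were tested, and 0 were called in either depletion against scramble siRNA. Between the depletions, where 4.69% of all tested genes were called lower with hnRNP L siRNA, 3 of the list were called lower. These were H1FX, H2AFX and H1F0, with log2 fold changes of -0.89, -0.82 and -0.67 and limma adjusted p of 0.00553, 0.0112 and 0.0162. H2AFX, the H2A variant that is phosphorylated at DNA breaks, had 73.38 and 99.07 TPM under scramble siRNA, 109.63 and 105.79 TPM under SETD2 depletion, and 58.53 and 63.33 TPM under hnRNP L depletion. Its 3 groups did not overlap, in the same order as those of HIST1H2BK and HIST3H2A. At an unadjusted p under 0.05, 4 genes of the list were higher and 0 lower after SETD2 depletion, against 6.76% and 6.36% of all genes. By the same threshold 0 were higher and 5 lower after hnRNP L depletion, against 8.12% and 20.3% of all genes.

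Genes of DNA replication and division were measured beside the histones, since histone mRNA follows S phase. Of 30 S phase genes, 0 were called after SETD2 depletion, and 1 was called higher and 1 lower after hnRNP L depletion. These were the licensing factor CDT1, with a log2 fold change of 0.61 and a limma adjusted p of 0.012, and the DNA ligase LIG1, with -0.72 and 0.0081. LIG1 was also the only gene of this list called between the depletions, with -0.66. By unadjusted p under 0.05, 11 S phase genes were higher and 0 lower after SETD2 depletion (6.76% and 6.36% of all genes), 9 were higher and 1 lower after hnRNP L depletion (8.12% and 20.3%), and 2 were higher and 7 lower between the depletions (7.71% and 20.8%). The list had a median log2 fold change of 0.17 after SETD2 depletion, with both libraries above both scramble libraries in 18 of 30 genes and below them in 1, against 22.9% and 20.6% of all genes. After hnRNP L depletion its median was 0.06, with 12 genes above and 4 below, against 18.8% and 37.8% of all genes. PCNA, the replication clamp, had 301.49 and 337.85 TPM under scramble siRNA, 391.11 and 402.18 TPM under SETD2 depletion, and 317.74 and 330.32 TPM under hnRNP L depletion. CCNE2, the cyclin E gene of S phase entry, had 6.18 to 7.59 TPM. Of 20 mitotic genes and of 22 histone chaperone genes 0 were called in any comparison by limma, while at an unadjusted p under 0.05 there were 0 mitotic genes higher and 1 lower and 5 chaperones higher and 1 lower after SETD2 depletion, 0 and 1 mitotic genes and 2 and 0 chaperones after hnRNP L depletion, and 2 and 1 mitotic genes and 0 and 5 chaperones between the depletions. The share of cells in S phase was not measured.

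RNAs that normally have no poly(A) tail were listed as well, and why some of them stood at 0 was not tested. The list has 37 rows and summed to 738.91 to 1055.76 TPM, most of it from RN7SL1 and RN7SL2, the RNAs of the signal recognition particle, with means of 421 and 413 TPM. Of these rows 15 were listed at 0 in every library and 16 were tested. After SETD2 depletion 0 were called higher and 2 lower, RNU5E-1 and RNU5F-1, against 0.0552% and 0.0491% of all tested genes. After hnRNP L depletion 0 were called higher and 3 lower, these 2 and SCARNA9, against 1.75% and 5.01% of all tested genes. By unadjusted p under 0.05, 2 were higher and 3 lower in the SETD2 siRNA libraries (6.76% and 6.36% of all genes). In those of hnRNP L siRNA 0 were higher and 4 lower (8.12% and 20.3%). RNU5F-1, a copy of the U5 snRNA, had 7.47 and 16.89 TPM under scramble siRNA and 0 elsewhere. RNU5E-1 had 5.61 and 13.4 TPM under scramble siRNA, again with 0 elsewhere. Other U5 copies did not follow this pattern. RNU5B-1 had 18.28 TPM in scramble library 2 and 48.98 TPM in SETD2 siRNA library 3. RNU5A-1 and RNU5D-1 each had 8.05 TPM in hnRNP L siRNA library 2, and RNU5D-1 had 8.0 TPM in scramble library 1. These copies were listed at 0 in their remaining libraries. How reads were shared among the U5 copies was not tested. Between the depletions 1 was called lower, RNU1-1, against 4.69% of all tested genes. RNU1-1 had 14.03 and 28.74 TPM under SETD2 depletion and 0 and 3.1 TPM under hnRNP L depletion. The part of such differences in the histone results was not tested.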

How the data were processed

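RNA-seq of 6 libraries (3 siRNAs, 2 libraries each) was used. The other samples of the series, which are ChIP-seq, were not analysed here. The authors deposited 1 table of TPM per gene, which per the methods came from reads aligned to hg38 with Ensembl 96 gene models; the submitters' processing notes name STAR 2.6.1c and RSEM 1.3.0. TPM are scaled to 1000000 per library, so depth and counting error are unknown. Where reads of near-identical genes are shared out by an estimate, as in RSEM, single copies are uncertain. Samples were grouped by their labels.

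Values were transformed to log2(TPM + 0.5), and 16300 genes with a mean of at least 0.5 TPM were tested with limma 3.58.1 in R 4.3.3 in a single fit of all 6 libraries, with a mean per siRNA and a trend of the variance with level (5.74 prior degrees of freedom). Benjamini-Hochberg adjustment ran over all 16300 genes, and a call required an adjusted p below 0.05 together with a change of more than 1.5-fold. P-values measure only the spread between these libraries. On simulated data with 200 genes changed in hnRNP L siRNA against scramble siRNA, the fit called 40 of 67 genes changed 2-fold, 55 of 67 changed 3-fold and 58 of 66 changed 4-fold, and 3 unchanged genes. Places, exons and sequences came from hg38 with GENCODE 44, a newer annotation than the authors' of the same build, where 71 members matched by gene ID and 5 by an older RefSeq symbol. The promoter windows are from RefSeq. Sequences and tables were read with pysam 0.24.0 and pandas 2.3.3 (Python 3.11.15), and Matplotlib 3.10.9 drew the plots.

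Members and lists were chosen with earlier results of these data known, and the lists were written from general knowledge. Named genes are the 3 highest members of each type, each called member, H2BFS, 7 members known to give polyadenylated mRNA as well, duplicated copies, the siRNA targets, a fixed set from the other lists and their called genes. Other named genes were chosen after their values were seen, among them HIST1H4J with HIST1H4K as a sum and the head-to-head pairs. The distance of 200 bases and the promoter motifs are descriptions.

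Results were recomputed with each library left out, with pseudocounts of 0.1 and 1, with the filter removed or raised to 1 TPM, after median-ratio scaling or quantile normalization, on protein-coding and lncRNA genes, on the compared groups alone, without the trend, without the fold-change cut-off, with HIST2 copies summed and with a replicate block. Further sums of copies and a crossed block were added after seeing the data. With 2 libraries per group no search for outlying libraries was made.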

Additional observations from a re-analysis of the deposited data

How the results depend on the processing

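TPM per library and 2 libraries per group limit what these counts can show. Without the filter on low values 0 members were called lower in each comparison. Of all 30537 genes, 1 was called lower after SETD2 depletion, 173 after hnRNP L depletion and 120 between the depletions. The median log2 fold change of the members was -0.0545 after hnRNP L depletion and -0.0411 between the depletions. Over all genes these medians were -0.025 and -0.0262. A pseudocount of 0.1 gave a median of -0.41 for the members after hnRNP L depletion, beside -0.09 for all genes. Without the fold-change cut-off 4 members were called lower after hnRNP L depletion, beside 1383 of all 16300 genes. With protein-coding and lncRNA genes only, 24 members were tested. HIST2H2BD was left out as a pseudogene, and HIST1H3B, HIST2H2AA3 and HIST2H2AA4 because their gene IDs are not in the newer annotation. HIST1H2AC and HIST3H2BB were then called lower after hnRNP L depletion, beside 951 of 14596 genes. Between the depletions 7 members were called lower, beside 867 genes. The median of the 24 members was there -0.41, beside -0.11 for all genes. The part of the members left out in these values was not tested. A further setting, chosen after seeing the data and no test of these genes, summed H2BFS with HIST1H2BK, HIST1H4J with HIST1H4K, and the HIST2 copies. In it 0 members were called lower after SETD2 depletion, 1 was called higher after hnRNP L depletion and 0 were called higher between the depletions. Over all 16297 genes these calls numbered 7, 287 and 349.

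The numbers 1 and 2 recur in the scramble and hnRNP L siRNA groups. The differences between numbered libraries correlated at r = -0.126 across 16300 genes. With 2 libraries per group this value cannot show whether libraries of the same number were made together. With the replicate block 1 member was called higher (HIST1H4J) and 2 lower (HIST2H2AA4 and HIST2H2BD) after hnRNP L depletion, beside 329 and 791 of 16316 genes. With a crossed block, chosen after seeing the data, 1 member was called higher and 4 lower, beside 514 and 1101 genes.

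With each library left out in turn, the members called lower ranged from 0 to 1 after SETD2 depletion, from 0 to 2 after hnRNP L depletion and from 0 to 4 between the depletions, and the members called higher stayed at 0, 0 and 1. Lone libraries were then assumed to vary like the other groups. Over the same fits the median log2 fold change of the members ranged from -0.12 to 0.21, from -0.48 to -0.15 and from -0.49 to -0.0701. The log2 ratio of summed TPM to scramble siRNA ranged after SETD2 depletion from -0.0478 to 0.32 for all members, from -0.15 to 0.39 for H1, from -0.19 to 0.37 for H2A, from 0.0537 to 0.29 for H2B, from -0.21 to 0.46 for H3 and from -0.01 to 0.28 for H4. After hnRNP L depletion it ranged from -0.47 to -0.11 for all members, from -0.73 to -0.20 for H1, from -0.66 to -0.11 for H2A, from -0.54 to -0.31 for H2B, from -0.10 to 0.56 for H3 and from -0.16 to 0.15 for H4. Where a call or value moved, the cause was not tested.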
